A study of Homo sapiens with 6 samples.

Results

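Cholesterol is made from acetyl-CoA through a chain of enzymes, and 27 genes of its synthesis, sensing and handling were examined in renal carcinoma cells in which RNF25, a RING-type ubiquitin ligase, had been knocked down. The genes were taken by symbol from a fixed list, and all 27 were found among the 30267 genes of the deposited table and passed the filter on low values that left 16554 genes for testing. They comprised 19 enzymes and 8 genes of sterol sensing, transport and storage, and none of them encodes a cell-surface lipoprotein receptor. RNA sequencing had been done on 6 libraries of SW839, an established human renal cell carcinoma line grown with serum. The 3 shControl libraries carried the pLKO vector and the 3 shRNF25 libraries carried an RNF25 hairpin of a single name, and an effect of that hairpin on other transcripts cannot be told apart from the loss of RNF25. The treatment text of the control samples also speaks of the RNF25 plasmid, so the groups rest on the titles, the genotype labels and the library names. The series describes biological triplicates, but no label says whether the libraries came from separate infections, and p-values measure the spread between these libraries.

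In the mevalonate pathway, acetyl units are joined to HMG-CoA, reduced to mevalonate and built up to farnesyl diphosphate, which feeds both sterols and protein prenylation. Squalene is then made, epoxidised and cyclised to lanosterol, and a further series of demethylation, reduction and isomerisation steps yields cholesterol. The pathway is governed by SREBP-2, a membrane-bound transcription factor encoded by SREBF2. SCAP escorts it to the Golgi for cleavage when sterols are low, while the INSIG proteins hold it in the endoplasmic reticulum when sterols are high.

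Promoter sequences are shown for 4 enzymes whose RNA rose and for SREBF2 and INSIG1, a pair of the 4 sensing genes, none of which passed the test. The promoters of SCAP and INSIG2, the other pair, and of IDI1, which also rose, held no CCAAT box and are not printed. The printed promoters are shown because SREBP-2 acts on such promoters together with NF-Y and Sp1. RefSeq (GRCh38.p14) promoters were found for 24 of the 27 genes and not for ACAT2, FDFT1 and SQLE. Each is printed 5′ to 3′ on the gene's own strand. Some RefSeq starts lie inside the GENCODE span of the gene, so parts inside GENCODE exons of protein-coding genes were left out. For MVK only a short stretch around a pair of CCAAT boxes is given. The RefSeq promoter of IDI1 lies wholly upstream of that gene's GENCODE span. Capitals mark the CCAAT box, read as CCAAT or ATTGG, and in SREBF2 also a TCACNCCAC match, a form of the sterol regulatory element.
HMGCS1, chr5:43313513-43313662, minus strand: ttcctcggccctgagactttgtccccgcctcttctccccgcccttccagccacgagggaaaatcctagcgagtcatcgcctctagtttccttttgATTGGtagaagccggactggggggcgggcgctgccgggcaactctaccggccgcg
MVK, chr12:109573695-109573724, plus strand: attgaCCAATgttcaagcctATTGGtaaag
LSS, chr21:46228825-46229024, minus strand: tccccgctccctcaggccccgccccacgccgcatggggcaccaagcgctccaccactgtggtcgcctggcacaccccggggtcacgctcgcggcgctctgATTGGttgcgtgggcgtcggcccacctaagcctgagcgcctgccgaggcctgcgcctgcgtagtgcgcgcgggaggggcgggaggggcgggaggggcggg
DHCR7, chr11:71448436-71448643, minus strand: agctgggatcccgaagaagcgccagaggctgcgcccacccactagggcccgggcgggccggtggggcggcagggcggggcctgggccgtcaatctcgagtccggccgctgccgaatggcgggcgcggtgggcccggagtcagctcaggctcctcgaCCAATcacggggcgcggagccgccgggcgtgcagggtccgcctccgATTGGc
SREBF2, chr22:41832855-41833078, plus strand: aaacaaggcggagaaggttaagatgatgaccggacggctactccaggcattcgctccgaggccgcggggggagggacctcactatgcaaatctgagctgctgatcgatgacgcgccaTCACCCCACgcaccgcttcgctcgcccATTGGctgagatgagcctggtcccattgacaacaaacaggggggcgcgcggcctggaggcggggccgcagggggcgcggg
INSIG1, chr7:155297628-155297775, plus strand: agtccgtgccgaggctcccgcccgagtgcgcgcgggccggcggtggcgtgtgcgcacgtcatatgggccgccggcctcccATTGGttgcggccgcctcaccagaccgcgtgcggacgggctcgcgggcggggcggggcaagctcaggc

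Within the 250 bases before the start, read on both strands, CCAAT was found in 17 of the 24 promoters (70.8%), against 32% of all 35116 RefSeq promoters and 35% of the 11370 promoters of tested genes. The GC box GGGCGG was found in 22 of 24 (91.7%), against 42.6% of all promoters and 66.1% of those of tested genes. TCACNCCAC was found only in SREBF2, against 0.883% of all promoters. Of the 5 promoters of genes that rose, 4 held CCAAT and 5 held GGGCGG. Of the other 19, 13 held CCAAT and 17 held GGGCGG, so both motifs were common among genes that rose and genes that did not. MVK and NSDHL each held 5 CCAAT matches, and PMVK, IDI1, CYP51A1, LBR, SCAP, INSIG2 and NPC1 held none. The IDI1 window, chr10:1056705-1056954 on the minus strand, lies upstream of the gene's GENCODE span, chr10:1039152-1049170. The lack of CCAAT for IDI1, and the count of 4 among the 5 genes that rose, rest on that window. Such matches describe the letters of these windows only.

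RNF25 itself was lower in every library labelled shRNF25. Its normalized counts, which are read counts divided by a library size factor, were 694.2, 533.5 and 536.4 in shControl and 214.1, 245.7 and 265 in shRNF25. The knockdown mean was 41.1% of the control mean (log2 fold change -1.27, SE 0.15, limma adjusted p = 0.000585). Libraries held 18647460 to 19943154 reads on genes. Control replicate 1 stood apart, with 12.1% of its reads on mitochondrial genes against 3.58% to 4.44% in the other 5 libraries. Log2 values correlated at a mean of 0.979 to 0.984 between control libraries and 0.994 between knockdown libraries. Keratin genes KRT8 (22200 to 38000 normalized counts) and KRT18 (15800 to 18800) and EPCAM (4210 to 5910) were high throughout, and the renal cadherin CDH6 was near 0 (0 to 13). The renal factor PAX8 was at 118 to 140 in shControl and 76.7 to 110 in shRNF25, and CA9, a hypoxia gene typical of clear cell tumors, was at 7.74 to 50.7 and 1.85 to 8.2. Between groups KRT8 did not overlap, being higher in shRNF25 (35100 to 38000 against 22200 to 31800), nor did EPCAM (4210 to 4520 against 4800 to 5910) and PAX8, both lower. Among markers of other cells, PTPRC, CD68, LUM and DCN stayed at or below 28.1, and the endothelial PECAM1 overlapped between groups (350 to 549). The endothelial cadherin CDH5 was at 73 to 199 in shControl and 3.64 to 8.31 in shRNF25. The part of these markers in the results was not tested, and in bulk RNA fewer cells of a type and less RNA per cell cannot be told apart. The control libraries carry differently formed names and the knockdown libraries share one, and any batch that runs along with this division cannot be told apart from the effect of the hairpin.

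After RNF25 knockdown, 6 of the 27 genes rose and 0 fell at an adjusted p below 0.05 by limma across all tested genes. All 6 are enzymes of cholesterol synthesis: ACAT2, HMGCS1, MVK, IDI1, LSS and DHCR7. For comparison, 10.5% of all tested genes rose and 10.8% fell. At least 1.5-fold higher were 3 of them, MVK, DHCR7 and LSS, against 8.65% of all tested genes, and 0 members fell by that much, against 7.1%. Without adjustment, p was below 0.05 for 10 members that were higher and 1 that was lower, against 17.3% and 18% of all tested genes. The 3 shRNF25 libraries lay above all 3 shControl libraries for 13 members and below them for 2, against 20.7% and 21.8% of all tested genes, and 12 members overlapped. The exact permutation test of a single gene cannot go below p = 0.1 with 3 libraries against 3. The 27 genes were chosen with earlier results of these data known, so their shares are not an independent comparison.

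The higher values were found mainly among the enzymes, and the difference between enzymes and other genes was not tested. Among 19 enzymes, 18 had a positive log2 fold change, with a median of 0.46, and 12 lay above all controls. Among the 8 genes of sensing, transport and storage, 3 were positive, with a median of -0.11, and none passed the test. Over all tested genes 48.8% were positive, with a median of -0.01, and 20.7% lay above all controls.

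**Figure D1:**
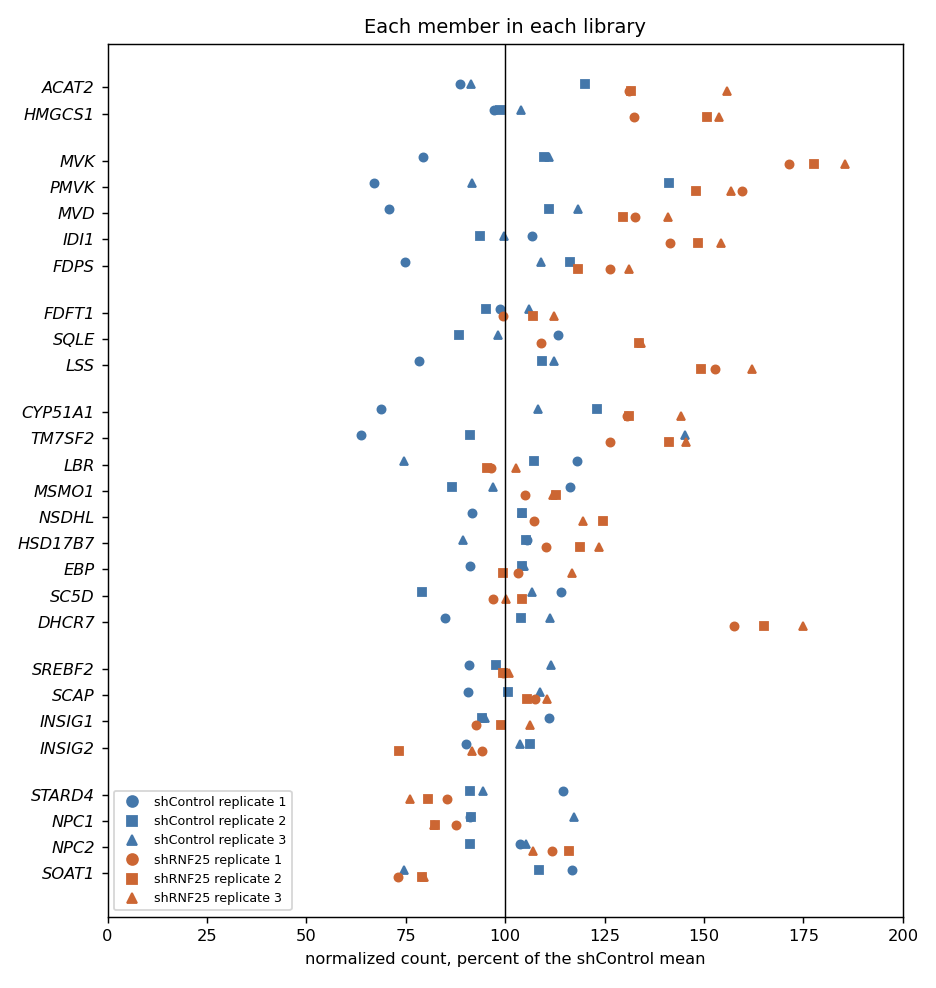
Normalized counts of the 27 genes in each of the 6 libraries as a percent of the gene's shControl mean (x axis), in pathway order from top to bottom. Blue marks are shControl and orange marks shRNF25 libraries. The orange marks of DHCR7, MVK and LSS lie clear to the right of the blue ones, and those of SREBF2, SCAP and INSIG1 fall among them.

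Both genes of the first steps rose, while 10.5% of all tested genes rose. ACAT2, the cytosolic thiolase that joins a pair of acetyl-CoA molecules, was at 1343.1, 1821.2 and 1385.8 in shControl and 1989.1, 1997.5 and 2361 in shRNF25. The groups did not overlap, although control replicate 2 came near the lowest knockdown library (log2 fold change 0.49, SE 0.141, adjusted p = 0.0372). HMGCS1, which condenses acetoacetyl-CoA with acetyl-CoA into HMG-CoA, was at 2186.6, 2220.3 and 2339.9 in shControl and 2975, 3388.3 and 3459.1 in shRNF25. Its control libraries lay close together and every knockdown library was above them (log2 fold change 0.54, 95% interval 0.31 to 0.77, 1.45-fold, adjusted p = 0.00659). By GENCODE 29 on GRCh38, HMGCS1 lies at chr5:43289395-43313512 and ACAT2 at chr6:159760328-159779055. ACAT2 shares 2996 exonic bases with genes on the opposite strand (SOD2, an RNA that overlaps it, and TCP1). SOD2, mitochondrial superoxide dismutase, fell from 4788 ± 1360 to 1738.3 ± 169 (SD, n = 3; adjusted p = 0.000928). The strand setting of the counting is not given in the sources used here, and without strand reads of such pairs cannot be told apart. Among the other genes that rose, HMGCS1 shares 703 exonic bases with the opposite strand, IDI1 643, LSS 570 and MVK 306, while DHCR7 shares 0.

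All 5 genes from mevalonate to farnesyl diphosphate had every knockdown library above every control, as did 20.7% of all tested genes. Of the 5, 2 passed the test, while 10.5% of all tested genes rose. MVK, mevalonate kinase, had the largest fold change of the 27. It was at 740.6, 1027.1 and 1037.2 in shControl and 1601.9, 1660.5 and 1732.9 in shRNF25. Even its highest control stood far below the lowest knockdown library (1.80-fold, log2 fold change 0.85, 95% interval 0.53 to 1.17, adjusted p = 0.0036). MVK lies at chr12:109573255-109598117 and shares 306 exonic bases with MMAB on the opposite strand, a cobalamin gene at 839.6 ± 170 in shControl and 1085.3 ± 67.9 in shRNF25 (n = 3; adjusted p = 0.11).

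IDI1, the isopentenyl diphosphate isomerase at chr10:1039152-1049170, was at 783.8, 688.5 and 731.8 in shControl and 1038.8, 1090.7 and 1133.3 in shRNF25. Both groups were tight and well apart (1.48-fold, log2 fold change 0.57, SE 0.107, adjusted p = 0.00602). PMVK, phosphomevalonate kinase, was at 525.1, 1105 and 717.7 in shControl and 1249.2, 1158.1 and 1227.7 in shRNF25. Its controls spread over a range wider than the gap between the group means, and its adjusted p of 0.0581 missed the threshold at a log2 fold change of 0.70 (95% interval 0.18 to 1.21). It passed in 8 of 17 alternatives. MVD, the mevalonate diphosphate decarboxylase, had 3146.7 ± 807 in shControl and 4230.4 ± 187 in shRNF25 (n = 3; adjusted p = 0.101). FDPS, which makes farnesyl diphosphate, had 4169 ± 923 and 5223.1 ± 266 (n = 3; adjusted p = 0.157). In both of these the lowest control was replicate 1, at 2224.2 for MVD and 3118.5 for FDPS.

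Of the 3 genes that lead to lanosterol, LSS rose, while 10.5% of all tested genes rose. LSS, lanosterol synthase, was at 3650.2, 5087 and 5227 in shControl and 7115.4, 6941.1 and 7540.6 in shRNF25. The knockdown libraries lay together above all controls, of which replicate 1 was lowest (1.57-fold, log2 fold change 0.65, 95% interval 0.32 to 0.97, adjusted p = 0.0132). It lies at chr21:46188141-46228824. SQLE, squalene epoxidase, had 5258.6 ± 658 and 6602.2 ± 757 (n = 3), and its groups overlapped because control replicate 1, at 5959.4, lay above the lowest knockdown library (log2 fold change 0.33, adjusted p = 0.107). FDFT1, squalene synthase, at the branch from farnesyl diphosphate to sterols, had a log2 fold change of 0.09 (95% interval -0.14 to 0.32).

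From lanosterol to cholesterol, 1 of 9 genes rose (11.1%, near the 10.5% over all tested genes). This was DHCR7, 7-dehydrocholesterol reductase, which acts in the last steps and lies at chr11:71428193-71452868. It was at 6423.7, 7859.3 and 8418.4 in shControl and 11920.1, 12499.7 and 13238.8 in shRNF25. No other member changed by as many counts, and the gap between groups exceeded the spread within either (1.67-fold, log2 fold change 0.74, 95% interval 0.46 to 1.02, adjusted p = 0.00357). Per kilobase of exon, a scale on which genes can be compared, DHCR7 was also the most abundant of the 27 in shControl (1820 ± 247 normalized counts per kilobase, n = 3), above SQLE (1220 ± 153) and FDPS (1120 ± 248), and the latter pair did not differ beyond their spread.

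The other 8 genes of this stretch had log2 fold changes from 0.00 for LBR to 0.54 for TM7SF2. LBR and TM7SF2 both encode sterol C14 reductases. TM7SF2 was at 600.3, 856.7 and 1365.3 in shControl and 1189.1, 1328.9 and 1367.8 in shRNF25, and 1 control lay among the knockdown libraries (95% interval -0.02 to 1.10, adjusted p = 0.155). LBR, which also anchors chromatin at the nuclear envelope, had an interval of -0.37 to 0.37. CYP51A1, lanosterol demethylase, lay above all controls (366.2 ± 103 against 495.6 ± 28.2, n = 3; adjusted p = 0.125), as did NSDHL and HSD17B7, which act in removal of the C4 methyl groups, at log2 fold changes of 0.23 and 0.24. The methyl oxidase MSMO1 (0.15), the isomerase EBP (0.09) and the desaturase SC5D (0.02) overlapped between groups. Counts of CYP51A1 and HSD17B7 are uncertain, because 88.9% and 51.1% of their 50-base exon words also occur in other annotated genes, overlapping transcripts or pseudogenes. HSD17B7P2, a pseudogene that shares such words with HSD17B7, rose from 52.72 ± 12.8 to 98.44 ± 7.62 (n = 3; 1.88-fold, adjusted p = 0.0145).

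**Figure D2:**
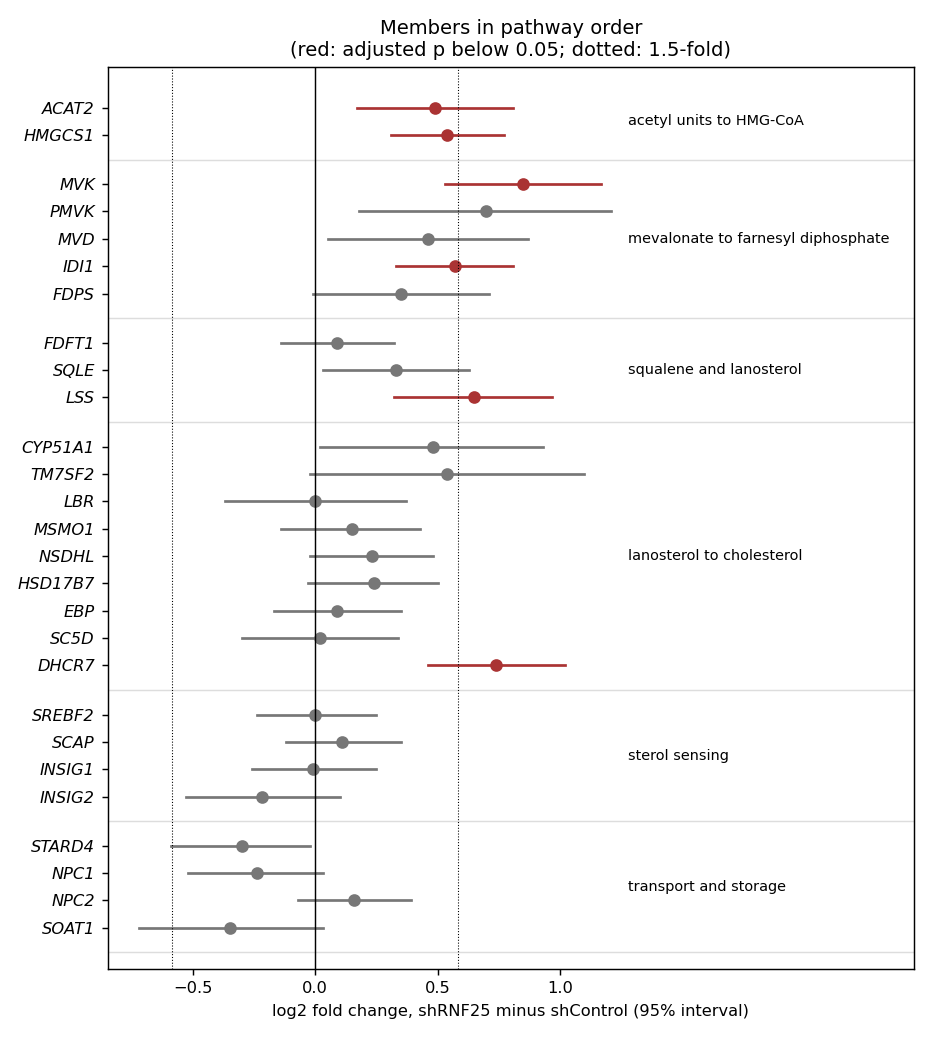
Log2 fold change of shRNF25 against shControl (points) with its 95% interval from limma (lines) for the 27 genes, grouped by role. Red marks the 6 genes past the test, all of them enzymes and all to the right of 0, while the 8 genes of sensing, transport and storage lie between -0.35 and 0.16.

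The genes that sense sterols did not pass the test, and all 4 overlapped between groups. SREBF2, at chr22:41833079-41907308, was at 4040.4, 4333.9 and 4949.6 in shControl and 4416.5, 4418.1 and 4481.9 in shRNF25. The knockdown libraries fell inside the range of the controls, and the interval of the fold, 0.848 to 1.19, holds no change of 1.5-fold in either direction. SCAP was at 2812.2, 3126.3 and 3372.8 in shControl and 3335.8, 3275.7 and 3433.4 in shRNF25 (log2 fold change 0.11, 95% interval -0.12 to 0.35). The highest control lay among the knockdown libraries.

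INSIG1, whose transcription is a known response to SREBP activity, was at 1493.5, 1264.1 and 1274.6 in shControl and 1246.5, 1328.9 and 1428.8 in shRNF25. The groups were interleaved (log2 fold change -0.01, fold interval 0.832 to 1.19). INSIG2 was at 410.1, 483.3 and 472.7 in shControl and 428.3, 333.4 and 417.5 in shRNF25, with only knockdown replicate 2 clearly low (log2 fold change -0.22, 95% interval -0.53 to 0.10). INSIG1 lies at chr7:155297776-155310235 and INSIG2 at chr2:118088452-118110997. The antisense transcript SREBF2-AS1, which shares 280 exonic bases with SREBF2, was at 3.921 ± 0.613 in shControl and 18.25 ± 4.23 in shRNF25 (n = 3). Its control libraries held 3 to 4 reads, and it passed the filter on low values only through the shRNF25 libraries. The filter thus favoured a rise, and no test of this transcript is given. It was looked up because of its overlap with SREBF2.

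**Figure D3:**
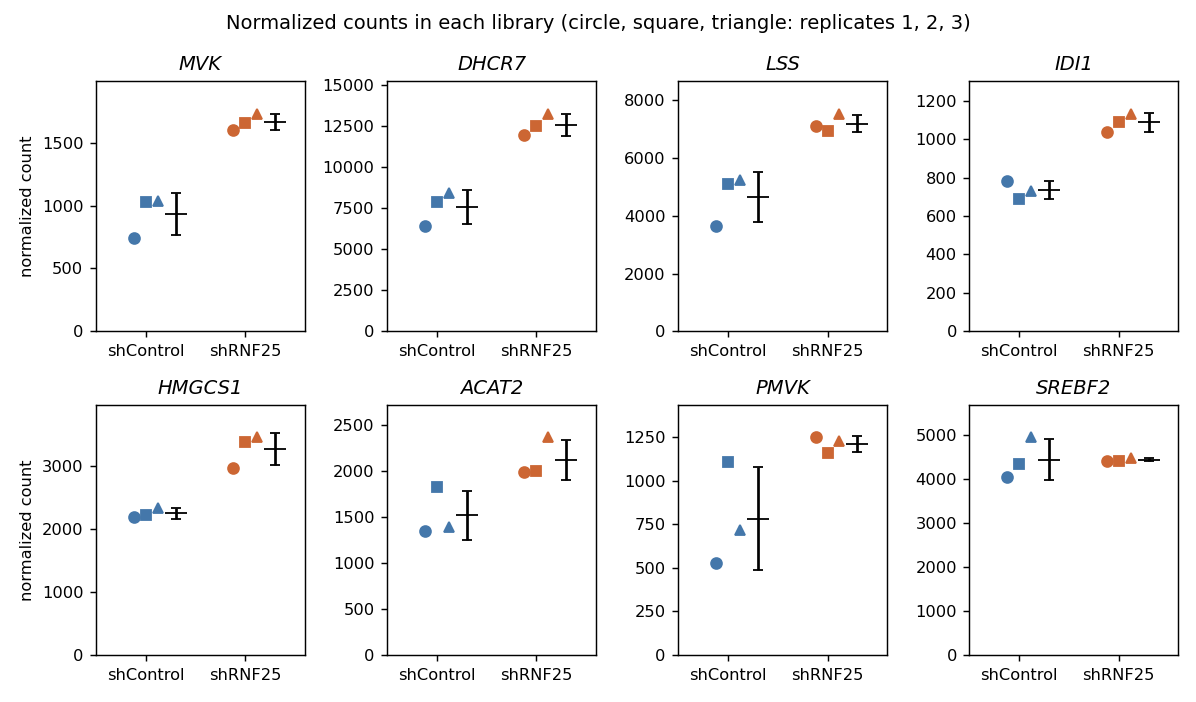
Normalized counts (y axis, from 0) in each library for the 6 enzymes that rose and for PMVK and SREBF2. Marks are libraries, with circle, square and triangle for replicates 1, 2 and 3, and black bars show the mean and SD of 3 libraries. The spread of the PMVK controls, 525.1 to 1105, is wider than that of its knockdown libraries, and the SREBF2 knockdown libraries sit within the controls.

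Of the 4 transport and storage genes 3 had negative log2 fold changes, and none passed the test. STARD4, a cytosolic sterol carrier, was at 674.3, 536.6 and 556.9 in shControl and 503, 474.7 and 448 in shRNF25, with every knockdown library below every control (log2 fold change -0.30, 95% interval -0.59 to -0.02, adjusted p = 0.124). NPC1, the membrane protein that exports cholesterol from lysosomes, likewise lay below all controls, at 3790.5 ± 572 and 3183.4 ± 121 (n = 3; adjusted p = 0.194). Its soluble partner NPC2 lay above all controls, at a log2 fold change of 0.16 (95% interval -0.07 to 0.39). SOAT1, which esterifies cholesterol for storage, had 959.7 ± 216 and 741.7 ± 35.6 (n = 3; adjusted p = 0.175) and overlapped.

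Control libraries varied more than knockdown libraries. The coefficient of variation was larger in shControl for 22 of the 27 genes, with medians of 13.6% and 5.1%. Over all tested genes the medians were 18.2% and 6.7%. Control replicate 1 was the lowest control for 16 of the 27 genes (59.3%, against 39.5% of all tested genes), and among them were MVK, PMVK, MVD, LSS and DHCR7. Base composition moved with this. The median transcript GC content was 56.5% for those 16 genes and 41.1% for the other 11. Across the 27 genes, which share these libraries, GC content and the deviation of control replicate 1 from the other controls had a Spearman rho of -0.74, and over 15937 tested genes it was -0.57. Between GC content and the log2 fold change rho was 0.54 over the 27 genes and 0.06 over all.

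Leaving control replicate 1 out gave 10 genes that rose, the 6 above along with PMVK, MVD, SQLE and MSMO1, and 1 that fell, NPC1. Over all tested genes the share that rose then grew from 10.5% to 15.8% and the share that fell from 10.8% to 18%. Without it 14 of the 19 enzymes lay above all remaining controls, as did 28.4% of all tested genes. A correction for GC content, chosen after the data were seen, gave 8, the same 6 with PMVK and MVD. Over all genes in that fit 11.8% rose and 18.1% fell. HMGCS1 and IDI1 have low GC contents of 40.2% and 41.1%. For IDI1 control replicate 1 was the highest control, and for HMGCS1 it was the lowest, with all controls within 2186.6 to 2339.9. Whether base composition had a part in the rises was not tested. Removal of knockdown replicate 2 or 3 left 3 genes past the test, MVK, IDI1 and DHCR7, and removal of knockdown replicate 1 left 4, these and HMGCS1. The share of all genes that rose then fell to between 4.64% and 5.15%. Without control replicate 3 ACAT2 missed the threshold while MVD and TM7SF2 passed it, for 7 genes in all. In that fit 12.5% of all tested genes rose and 12% fell.

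**Figure D4:**
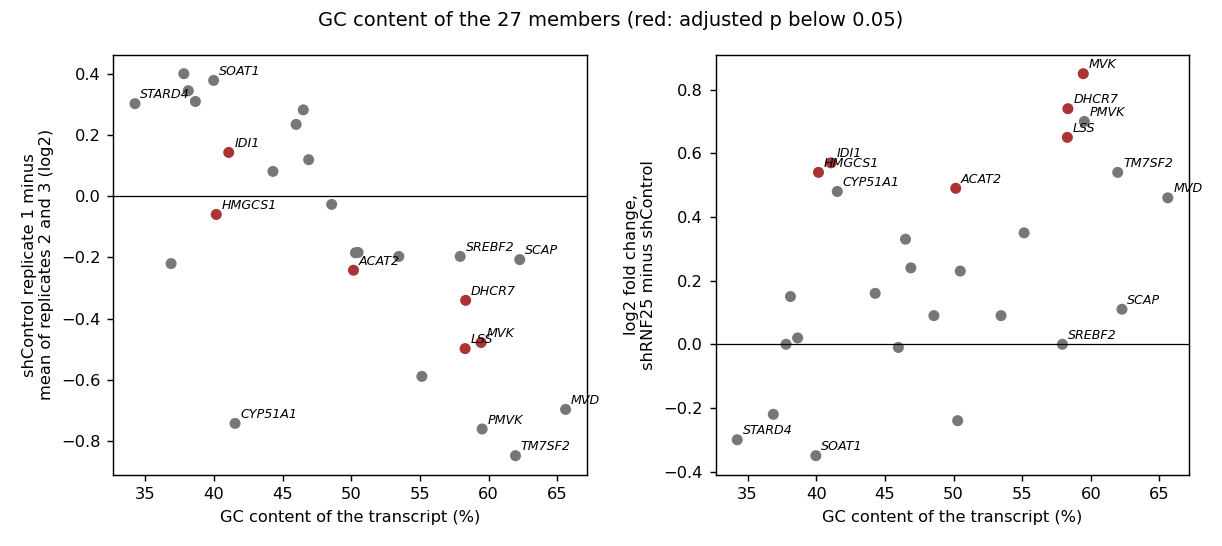
GC content of each gene's transcript (x axis, percent) against the log2 difference of shControl replicate 1 from the mean of replicates 2 and 3 (left) and against the log2 fold change of shRNF25 over shControl (right). Points are the 27 genes, red where the test was passed. Points fall from left to right in the first panel (rho -0.74), and rho was 0.54 in the second. HMGCS1 and IDI1 are the red points with the lowest GC content.

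Beside the 27 genes, a list of 49 other genes of sterol supply, transport and use was counted, of which 46 were tested. In it 5 rose (10.9%) and 7 fell (15.2%), against 10.5% and 10.8% of all tested genes, with a median log2 fold change of -0.02. The share that rose was close to that over all genes. Leaving out control replicate 1 gave 9 and 11, while 15.8% of all genes then rose and 18% fell. Leaving out knockdown replicate 1 gave 2 and 3, with 4.64% and 5.23% over all genes. At least 1.5-fold changes were seen in 4 upward and 4 downward (8.7% each), near the shares over all tested genes of 8.65% and 7.1%. By sign, 21 were positive and 25 negative. VLDLR, SOAT2 and CH25H were below the filter on low values. This list was also chosen with earlier results of these data known.

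The largest falls in this list were among genes of non-vesicular sterol transport. Of 9 such genes 3 fell, all by at least 1.5-fold, and 0 rose, while 7.1% of all tested genes fell by that much. GRAMD1A, an endoplasmic reticulum protein that takes cholesterol from the plasma membrane, was at 1845, 1617 and 1647 in shControl and 739.9, 749 and 700.6 in shRNF25. Its groups stood far apart (2.33-fold lower, log2 fold change -1.22, SE 0.105, adjusted p = 0.00013). Its paralog GRAMD1B was at 2342.4, 2277.8 and 2690.7 in shControl and 1194.6, 1140.5 and 1062.8 in shRNF25 (log2 fold change -1.10, adjusted p = 0.000257). STARD3NL, a late endosomal tether to the endoplasmic reticulum, was at 930.8, 838.3 and 763.1 and then 407.3, 444.2 and 408.9 (95% interval of the log2 fold change -1.27 to -0.73, adjusted p = 0.000635). In all 3 genes every knockdown library lay far below every control.

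Genes of uptake and the lysosome moved both ways. LIPA, the lysosomal acid lipase that frees cholesterol from lipoprotein esters, rose from 1642.7, 1549.3 and 1420.3 to 2353.6, 2323.5 and 2547.9 (log2 fold change 0.65, adjusted p = 0.00295). MYLIP, a ubiquitin ligase that degrades lipoprotein receptors, rose from 110.5, 103.6 and 130.6 to 216, 184.7 and 172.5 (log2 fold change 0.73, adjusted p = 0.0122). SCARB1, the high-density lipoprotein receptor, fell from 2140.1, 2460.4 and 3019.8 to 1470.7, 1542.3 and 1691.9 (log2 fold change -0.68, adjusted p = 0.00837). These 3 genes did not overlap between groups. Without knockdown replicate 1, MYLIP (adjusted p = 0.0775) and SCARB1 (adjusted p = 0.0545) missed the threshold, as did MYLIP without knockdown replicate 2 (adjusted p = 0.0553). ACSS2, which makes acetyl-CoA from acetate, rose from 2430.9, 2924.2 and 3102.9 to 4543.2, 4064.3 and 4336 (log2 fold change 0.62, adjusted p = 0.00649). SCARB1 and ACSS2 had the smallest of the 4 changes in their directions and were named after their values were seen. CYP7B1, an oxysterol hydroxylase, rose from 7.738, 16.42 and 15.11 to 20.96, 32.32 and 31.46 (log2 fold change 1.09, adjusted p = 0.0494), near the filter limit, and it missed the threshold in 11 of the 16 alternatives in which it was tested. SREBF1, which encodes the SREBP form tied mainly to fatty acid synthesis, lay above all controls at a log2 fold change of 0.45 without passing (adjusted p = 0.0756).

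**Figure D5:**
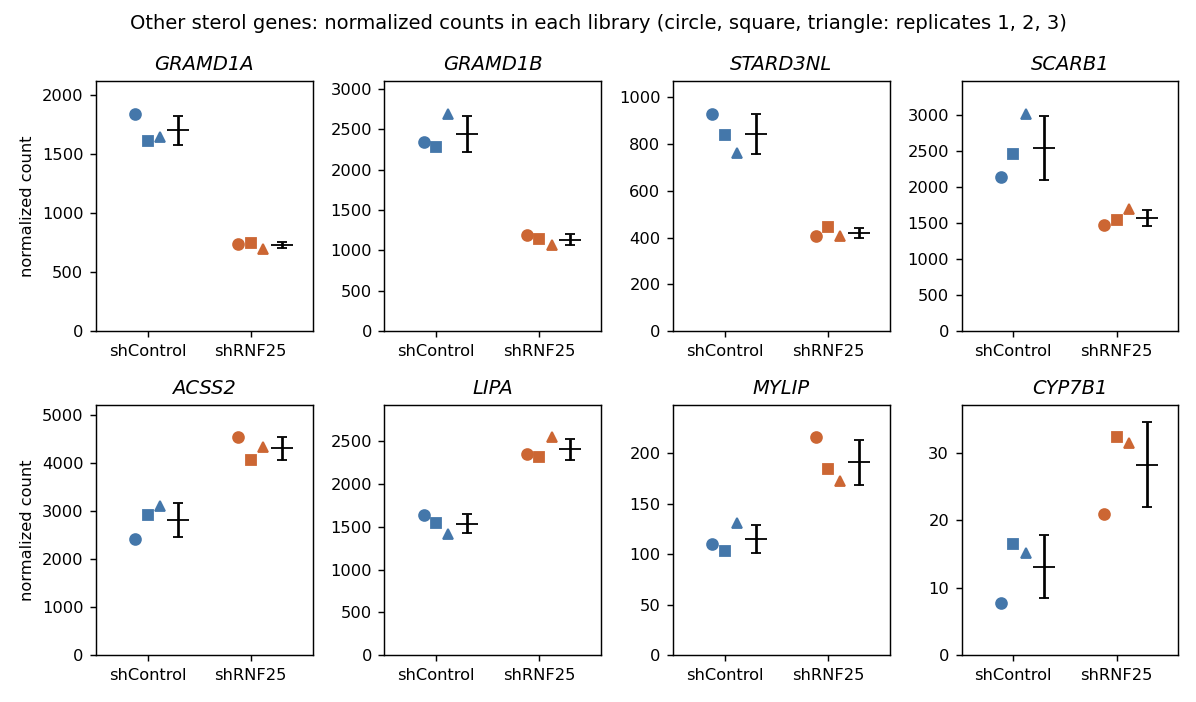
Normalized counts (y axis, from 0) in each library for the 8 other sterol genes past the test with a fold of at least 1.5, the lower ones in the top row and the higher ones in the bottom row. Marks are libraries and black bars the mean and SD of 3. The knockdown libraries of GRAMD1A, at 700.6 to 749, lie below its controls at 1617 to 1845.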

How the data were processed

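RNA from SW839 cells was depleted of ribosomal RNA and sequenced from stranded libraries, according to the paper's methods, which describe testing with DESeq2. The submitters' processing notes name fastp, HISAT2, HTSeq and GRCh38. The annotation version and strand setting are not given in the sources used here. The authors deposited one table of normalized counts, a signal in which each read count was divided by a library size factor. Whole reads were recovered for 100% of values in every library (tolerance 0.001 reads). Genes that reached 10 in 3 or more libraries were compared as log2(normalized count + 1) with limma 3.58.1 (R 4.3.3, trended eBayes, no covariates, Benjamini-Hochberg over all tested genes), and fold changes are on that scale. A change needed an adjusted p below 0.05, with a 1.5-fold limit counted apart. Alternatives on recovered reads used edgeR 4.0.16 and DESeq2 1.42.0, and all tools were tested on simulated data. The simulation gave both groups the same spread, unlike these libraries, and used changes larger than those of the members. Others changed the pseudocount, filter, scaling, weights, replicate block, GC content and libraries used. Levels between genes were divided by exon length, and positions and overlaps came from GENCODE 29. The members and lists were chosen with earlier results of these data known. Library values are given for members past the test, for sensing genes and for PMVK, TM7SF2 and STARD4. For other sterol genes the 3 with the largest changes of at least 1.5-fold in each direction were named. SCARB1, ACSS2 and SREBF1 were added to these. Intervals cover the spread between libraries only.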

Additional observations from a re-analysis of the deposited data

How the results depend on the processing

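The signs of the 6 genes that rose held in all 17 alternatives. MVK, IDI1 and DHCR7 passed the threshold in all of them, HMGCS1 in 15, LSS in 14 and ACAT2 in 12. The count of 6 higher members became 5 without the filter and 9 with quantile normalization, was 6 by edgeR and became 7 by DESeq2 with PMVK added. In the same order, 5.41% of 30267 genes, then 10.5%, 11.3% and 11.1% of 16554 genes rose. Leaving out 1 library gave 3 to 10 higher (10 without shControl replicate 1, 3 without shRNF25 replicate 2 or 3) and 0 to 1 lower (NPC1 without shControl replicate 1, SOAT1 without shControl replicate 3). Over all tested genes 4.64% to 15.8% then rose and 5.2% to 18% fell. Members higher by at least 1.5-fold, 3 as reported, were 8 with quantile normalization, 6 with a median ratio over well-expressed genes and 2 to 5 with 1 library left out. Shares over all genes at that fold are not given for these settings, so these counts have no background beside them. The other sterol genes gave 3 higher without the filter, 4 lower with quantile normalization, and 2 to 9 higher and 3 to 11 lower with 1 library left out (9 and 11 without shControl replicate 1, 2 and 3 without shRNF25 replicate 1). Over all genes 5.41% rose without the filter and 9.97% fell with quantile normalization. Same-numbered libraries did not deviate together (correlations -0.0638, -0.0874 and 0.0471). The fit with the replicate block gave 7 higher members and moved the calls over all genes to 1557 higher and 1527 lower, from 1740 and 1785.

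Genes near 0 changed sign. The log2 fold change of LBR was 0.08 with quantile normalization, 0.06 with the median ratio, 0.0058 by edgeR and -0.20 to 0.13 with 1 library left out. That of INSIG1 was 0.08, 0.06 and 0.02 under the same settings, 0.0031 by DESeq2 and -0.06 to 0.07. SREBF2 was at -0.05 after GC correction, and ranged from -0.06 to 0.09 with 1 library left out, and SC5D from -0.14 to 0.13. The causes were not tested. PMVK passed in 8 of the alternatives and MVD in 5, and their control spread was wider than that of the genes that rose in all.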
